A study of Mus musculus with 24 samples.

Results

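The transcripts of 10 genes of the YAP/TAZ pathway were followed in mouse embryonic fibroblasts (MEFs). They are the transcriptional coactivators Yap1 and Wwtr1 (the gene for TAZ), the DNA-binding partner Tead1, the kinases Lats1 and Lats2, the target genes Ccn1, Ccn2, Ankrd1 and Amotl2, and the LIM-domain scaffold Ajuba. The 10 were taken by gene name from the gene count table of 55487 genes, with no rule on their values. They were chosen with earlier results of these data known. All 10 were among the 15828 genes that passed the filter on low counts. The study asked whether the energy-sensing kinase AMPK is needed for the transcription factor TFEB to switch on its genes when AMPK is activated or the growth kinase MTOR is inhibited. WT MEFs and MEFs labelled AMPK KO (prkaa1 prkaa2 double knockout, which removes both catalytic subunits) received the vehicle DMSO, the AMPK activator MK-8722 or the MTOR inhibitor torin1. Each of the 6 groups held 4 poly(A) RNA libraries. The labels give no dose or treatment time for these libraries.

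Each genotype was a separate cell population. WT libraries came from passages 12 to 15 and AMPK KO libraries from passages 16 to 19, with 1 library of each treatment per passage, so genotype and passage cannot be told apart. Nothing in the labels says that passages are separate derivations, and p values therefore measure the spread between passages of 1 population per genotype. Total counts ran from 26900240 to 34192685 per library and RNA integrity numbers from 9.7 to 10.0. By the Dixon test no library was called outlying in any of the 10 genes, but with 4 libraries per group that test finds only wide gaps. No 2 replicates were identical. Gene counts cover the whole of Prkaa1 and Prkaa2, and the sources used here do not say which part of each gene is deleted. Prkaa1 had a library-size-scaled count (CPM) of 80.9 ± 2.00 (SD, n = 4) in WT and 70.9 ± 2.95 in AMPK KO under DMSO, and Prkaa2 had 4.74 ± 1.12 and 3.21 ± 0.970, so these counts do not check the genotype label. MK-8722 changed 2483 genes in WT and 247 in AMPK KO, and with passage as a block 2907 and 729. Of 10 fibroblast markers, 8 were tested, and Dcn and Lum were below 1 CPM in every library. Their summed level was 11153.6 to 15911.3 CPM in WT and 4796.16 to 5371.07 CPM in AMPK KO under DMSO, which is given again beside the genotype comparison. The summed markers of epithelial, endothelial, haematopoietic and skeletal muscle cells stayed at or below 8.60 CPM in every library.

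In the Hippo pathway the kinases LATS1 and LATS2 phosphorylate YAP and TAZ, which holds them in the cytoplasm or marks them for degradation. Unphosphorylated YAP and TAZ enter the nucleus, bind TEAD proteins and switch on genes for matrix, adhesion and growth, among them the matricellular genes Ccn1 and Ccn2. Several targets feed back on the pathway: LATS2 and AMOTL2 both restrain YAP. In fibroblasts the pathway responds to cell density, matrix stiffness and serum, and AMPK is known to phosphorylate YAP under energy stress. The activity of YAP and TAZ is set largely by phosphorylation and location, which transcript counts do not measure.

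The short DNA word bound by TEAD proteins is shown first, since it links the coactivators to the target genes. RefSeq promoter windows on GRCm38.p6 (250 bases before to 50 after a start site) were at hand for 8 of the 10 genes, in 10 windows. Ccn2 and Tead1 had no window at hand and were not searched. The letters GGAATG, read on both strands, were found for 7 of the 8 genes and in 8 of the 10 windows, against 14.7% of 32851 windows over all genes. Lats1 was the gene searched without a match. The 9 matches are given below as 30 bases each on the strand of the gene, with GGAATG or its complement CATTCC in capitals.
Yap1, chr9:8004720-8004749: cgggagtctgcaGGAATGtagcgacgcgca
Wwtr1, chr3:57576029-57576058: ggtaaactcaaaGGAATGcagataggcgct
Lats2, chr14:57746102-57746131: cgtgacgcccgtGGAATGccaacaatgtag
Ccn1, chr3:145650071-145650100: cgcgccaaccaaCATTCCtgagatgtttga
Ankrd1, chr19:36120037-36120066: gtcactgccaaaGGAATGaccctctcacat
Ankrd1, chr19:36119950-36119979: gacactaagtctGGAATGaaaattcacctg
Amotl2, chr9:102717727-102717756: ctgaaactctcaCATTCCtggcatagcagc
Ajuba, chr14:54577830-54577859: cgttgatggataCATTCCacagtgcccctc
Ajuba, chr14:54577808-54577837: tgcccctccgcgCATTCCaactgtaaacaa

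All of these genes but Amotl2 lie on the minus strand. Under the GENCODE vM21 annotation the sites of Yap1, Wwtr1, Ccn1 and Ajuba lie in no gene, upstream of the start. The Ankrd1 and Amotl2 sites fall within untranslated exon sequence of longer transcripts of the same genes. The Lats2 site overlaps in part exon sequence of Lats2 and of the gene model Gm49361. It lies inside the Lats2 gene, which extends upstream to chr14:57758388. The match nearest a start site was that of Lats2, at position 5 after it. The other matches began 65 bases (Amotl2) to 210 bases (Ankrd1) before it. The word TGANTCA of AP-1 factors was in none of the 10 windows (7.81% of all windows), nor was the CArG box of serum response factor (1.63%). A match is a description of the letters, and binding was not measured.

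Ccn1 gave one of the largest responses below, and its 250 bases before the start site (chr3:145649986-145650235, minus strand) are printed in full, with the TEAD word in capitals 103 bases before the start.
Ccn1 upstream: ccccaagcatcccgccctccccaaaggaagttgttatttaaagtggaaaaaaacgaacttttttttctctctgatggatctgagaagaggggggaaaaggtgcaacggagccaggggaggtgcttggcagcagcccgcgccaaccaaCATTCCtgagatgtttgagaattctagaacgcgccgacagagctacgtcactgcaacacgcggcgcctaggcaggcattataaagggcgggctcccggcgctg

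Per length, the secreted targets were the most abundant of the 10 in WT MEFs under DMSO. Ccn2 had a length- and depth-scaled abundance (TPM) of 289 ± 70.9 (SD, n = 4) and Ccn1 277 ± 33.7 TPM, which overlap within their SD. Amotl2 followed at 157 ± 10.5 TPM. Yap1 (94.0 ± 2.79 TPM) and Ajuba (86.6 ± 3.21 TPM) came next, then Ankrd1 at 74.1 ± 7.14 TPM. Lats2 (53.3 ± 3.06 TPM) and Tead1 (53.0 ± 1.87 TPM) could not be separated, and Wwtr1 (46.3 ± 0.943 TPM) and Lats1 (29.1 ± 1.01 TPM) were lowest. In AMPK KO the order began with Ccn1 at 167 ± 10.9 TPM and Amotl2 at 81.4 ± 10.7 TPM. Ccn2 followed at 68.7 ± 8.34 TPM, level with Ajuba (68.5 ± 2.87 TPM) and Yap1 (63.4 ± 2.15 TPM).

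**Figure D1:**
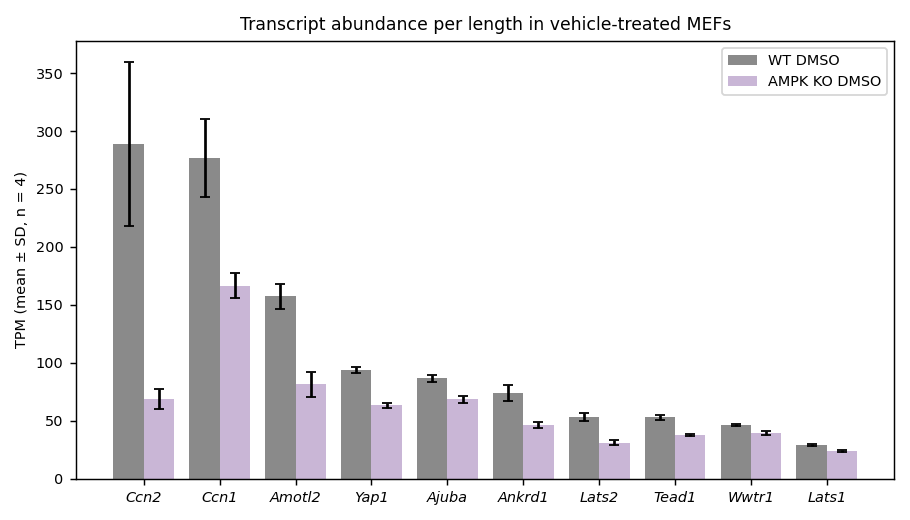
Mean TPM of the 10 genes under DMSO in WT (grey) and AMPK KO (violet) MEFs, with bars of 1 SD over 4 libraries. Ccn2 falls from 289 TPM in WT to 68.7 TPM in AMPK KO, and every gene has the lower mean in AMPK KO.

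A gene was called when its adjusted p (edgeR quasi-likelihood test, Benjamini-Hochberg over 15828 genes) was under 0.05 and its fold change (FC) was at least 1.2 in either direction. All adjusted p values below come from that fit, and log2 FC are given with their SE. Levels are CPM scaled with TMM factors, in the order of replicates 1 to 4. RNA was measured per culture, so fewer cells expressing a gene and less RNA per cell cannot be told apart.

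MK-8722 raised the 2 matricellular targets in WT MEFs, and the shifts of the other members were smaller. Of the 10 genes, Ccn1 and Ccn2 rose, Ajuba fell and 7 were not called. By the edgeR test 7 of the 10 had an unadjusted p under 0.05, and Lats2 passed the adjusted p alone. Over all genes tested, MK-8722 raised 10.0% and lowered 5.66%. The median log2 FC of the 10 was 0.12, against -0.002 over all genes. The ranges of the MK-8722 and DMSO libraries did not overlap for 9 of the 10 genes (Lats1 was the exception), and that held for 25.5% of all genes tested. The summed endothelial markers moved with MK-8722 in WT, from 0.878 to 1.28 CPM under DMSO to 4.44 to 8.60 CPM. Pecam1, Cdh5 and Tek stayed below 1 CPM in every library. The rise lay mostly in Kdr (0.772 to 1.13 CPM under DMSO, 4.28 to 8.41 CPM under MK-8722). The summed haematopoietic markers went from 1.98 to 2.85 CPM under DMSO to 3.14 to 4.67 CPM, with Ptprc, Adgre1 and Csf1r below 1 CPM in every library. That rise lay mostly in Cd68 (1.79 to 2.38 CPM under DMSO, 2.74 to 4.09 CPM under MK-8722). The part of either list in these differences was not tested.

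Ccn1 (ENSMUSG00000028195, chr3:145646976-145649981, minus strand) encodes a secreted matricellular protein that binds integrins. WT libraries held 357, 412, 315 and 333 CPM under DMSO and 814, 501, 628 and 651 CPM under MK-8722. Every MK-8722 library lay above every DMSO library, and the MK-8722 libraries spread more widely. The log2 FC was 0.87 ± 0.12 (FC 1.83, adjusted p = 5.4e-06). Compared within passages, the ratio was 1.51 at passage 12, 1.98 at passage 13, 1.82 at passage 14 and 1.99 at passage 15. With any 1 library left out, the log2 FC stayed between 0.75 and 0.98 and the gene was called.

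Ccn2 (ENSMUSG00000019997, chr10:24595442-24598683, plus strand), the gene for connective tissue growth factor, showed a similar rise in WT. It had 384, 578, 334 and 455 CPM under DMSO and 1090, 763, 737 and 812 CPM under MK-8722. The groups did not overlap, with replicate 2 the highest under DMSO and replicate 3 the lowest under MK-8722. Its log2 FC was 0.96 ± 0.18 (FC 1.94, adjusted p = 0.00032), and the ratio within passages ran from 1.68 to 2.21. In WT, passage 15 was the lowest of the 4 passages for Ccn2 under each of the 3 treatments. An antisense gene model shares 665 exon bases with Ccn2 and held 27.0 to 72.0 counts per library, against 2614 to 27988 for Ccn2.

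**Figure D2:**
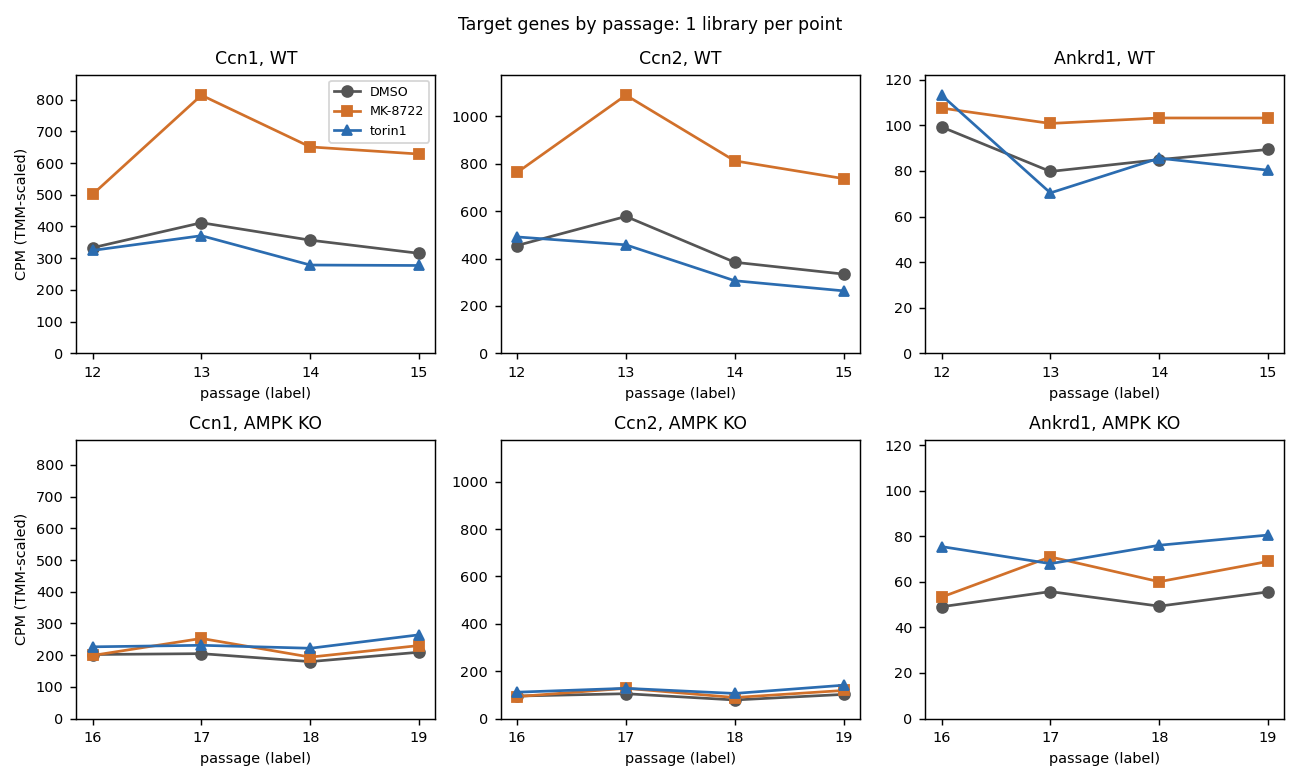
CPM of Ccn1, Ccn2 and Ankrd1 (1 library per point, lines join libraries of 1 treatment) against the passage in the labels, for WT (top) and AMPK KO (bottom) MEFs under DMSO, MK-8722 and torin1. At each WT passage MK-8722 lies above DMSO for Ccn1 and Ccn2, by ratios of at least 1.51 and 1.68, whereas in AMPK KO the MK-8722 ratios run from 0.976 to 1.23, and torin1 lies above DMSO at each passage, by 1.12 to 1.26 for Ccn1 and 1.17 to 1.38 for Ccn2.

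Ajuba, whose LIM-domain protein binds LATS kinases and limits YAP phosphorylation, was the 1 member that fell. Ajuba (chr14:54567472-54577558) had 191, 187, 181 and 178 CPM under DMSO and 146, 152, 158 and 157 CPM under MK-8722, with no overlap. The log2 FC was -0.27 ± 0.05 (FC 0.830, adjusted p = 0.00034). This is just past the 1.2-fold limit, and without MK-8722 replicate 1 (log2 FC -0.24, adjusted p = 0.0023), with total counts as scaling (-0.26, adjusted p = 0.00019) or with a length offset (-0.26, adjusted p = 0.00068) the gene was no longer called.

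The kinase gene Lats2 came close to the limit. WT libraries held 158, 173, 146 and 159 CPM under DMSO and 190, 190, 189 and 187 CPM under MK-8722, so the MK-8722 libraries lay together above the more scattered DMSO libraries. Its log2 FC of 0.25 ± 0.06 had an adjusted p of 0.0018 with an FC of 1.19. Without DMSO replicate 2 (log2 FC 0.27, adjusted p = 0.0012) it was called. Reads of Lats2 (chr14:57689662-57758388) can be shared with Gm49361, a gene model on the same strand that covers 2955 of its 6971 exon bases. That model held 134 to 442 counts per library against 2254 to 5677 for Lats2, so all Lats2 values carry this uncertainty.

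The other 6 members did not pass the test with MK-8722 in WT. Yap1 had a log2 FC of -0.09 ± 0.04 (adjusted p = 0.12), Wwtr1 0.08 ± 0.05 (0.26), Tead1 0.11 ± 0.07 (0.25) and Lats1 0.07 ± 0.04 (0.16). The target Ankrd1, a nuclear ankyrin-repeat protein, had 85.0, 79.8, 89.4 and 99.3 CPM under DMSO and 101, 108, 103 and 103 CPM under MK-8722 (log2 FC 0.23 ± 0.10, adjusted p = 0.11). Amotl2, an angiomotin-family scaffold that binds YAP, had means of 343 and 376 CPM and was not called (log2 FC 0.13 ± 0.06, adjusted p = 0.11). The ranges of Ankrd1 and Amotl2 did not overlap between the groups, but their differences missed the adjusted threshold.

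In AMPK KO MEFs none of the 10 genes was called with MK-8722. Over all genes, 0.866% rose and 0.695% fell. The count of 0 comes from the edgeR test and was also 0 with DESeq2, while 4 of the 10 had an unadjusted p under 0.05 and Ajuba passed the adjusted p alone. Ccn1 had 209, 205, 202 and 180 CPM under DMSO and 230, 199, 253 and 194 CPM under MK-8722. The groups overlapped, and the log2 FC was 0.14 ± 0.12 (adjusted p = 0.63). Ccn2 had 102, 105, 94.9 and 78.4 CPM against 119, 92.7, 128 and 88.8 CPM, again with overlap (log2 FC 0.17 ± 0.19, adjusted p = 0.72). The ratios within passages ran from 0.985 to 1.23 for Ccn1 and from 0.976 to 1.22 for Ccn2. Ajuba was the 1 gene whose groups did not overlap, at 145, 143, 129 and 131 CPM against 117, 114, 127 and 113 CPM (11.7% of all genes did not overlap). Its log2 FC of -0.22 ± 0.05 (adjusted p = 0.025) stayed under the 1.2-fold limit. Ankrd1 had the largest difference of the 10, at 0.27 ± 0.11 (adjusted p = 0.18), and was called with passage as a block (0.27, adjusted p = 0.027).

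The response to MK-8722 was then compared between the genotypes directly, as the log2 FC in AMPK KO minus that in WT. It differed for 4 of the 10 genes, all with the lower value in AMPK KO. Over all genes, 7.66% had a lower and 5.12% a higher value in AMPK KO. The difference was -0.73 ± 0.17 for Ccn1 (adjusted p = 0.0036), and the gene was called with any 1 library left out (-0.84 to -0.61). For Lats2 it was -0.41 ± 0.08 (adjusted p = 0.0012), with log2 FC of 0.25 in WT and -0.16 in AMPK KO. Amotl2 had 0.13 in WT and -0.19 in AMPK KO, a difference of -0.32 ± 0.09 (adjusted p = 0.013). Neither of these 2 genes was called for MK-8722 in either genotype taken alone.

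The Ccn2 difference was the largest but the least stable of the 4. At -0.79 ± 0.26 it had an adjusted p of 0.040. Ccn2 was no longer called in 10 of 16 fits, those without WT DMSO replicates 1, 3 and 4, WT MK-8722 replicates 1 and 4, KO DMSO replicates 1, 2 and 3, and KO MK-8722 replicates 2 and 4 in turn. In those fits the difference lay between -0.81 and -0.65, with adjusted p of 0.053 to 0.095. For Ankrd1 (0.04 ± 0.15, adjusted p = 0.90) and Ajuba (0.05 ± 0.07, adjusted p = 0.73), as for Yap1, Wwtr1, Tead1 and Lats1, no difference was detected.

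**Figure D3:**
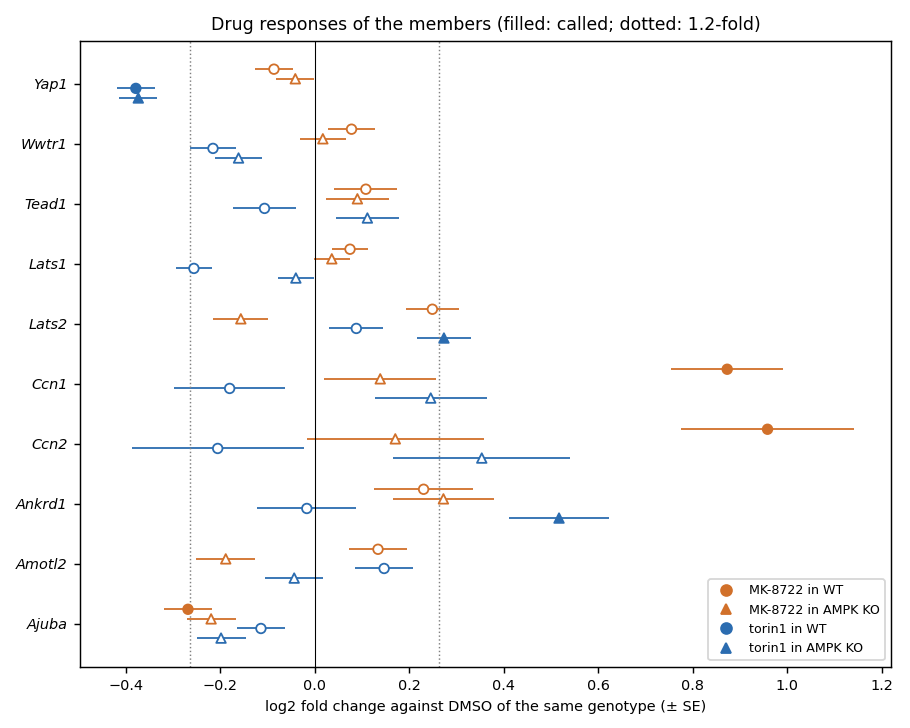
Log2 fold change (± SE) of each gene against DMSO of the same genotype, for MK-8722 (orange) and torin1 (blue) in WT (circles) and AMPK KO (triangles). Filled symbols are called genes and dotted lines mark a fold change of 1.2. Ccn1 (0.87) and Ccn2 (0.96) with MK-8722 in WT stand to the right of the other values, and Yap1 falls with torin1 in both genotypes by nearly the same amount (-0.38 and -0.37).

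Torin1 lowered Yap1 in WT and no other member was called, in a transcriptome where 26.6% of genes rose and 21.1% fell. The summed epithelial markers went from 1.40 to 2.41 CPM under DMSO to 3.10 to 5.24 CPM under torin1 in WT, with Krt8 and Krt5 below 1 CPM in every library. The summed endothelial markers went from 0.878 to 1.28 CPM to 1.97 to 3.87 CPM, mostly in Kdr (0.772 to 1.13 and 1.62 to 3.68 CPM). Of the 8 fibroblast markers tested, 4 rose and 2 fell with torin1 in WT. The summed fibroblast markers were 11153.6 to 15911.3 CPM under DMSO and 13544.0 to 17096.7 CPM under torin1. The part of these markers in the differences of the 10 genes was not tested. The torin1 and MK-8722 comparisons share the DMSO libraries of each genotype. Yap1 (ENSMUSG00000053110, chr9:7931999-8004596, minus strand) had 197, 193, 195 and 189 CPM under DMSO and 143, 151, 147 and 154 CPM under torin1. The torin1 libraries were all below the DMSO libraries, with little spread in either group. The log2 FC was -0.38 ± 0.04 (FC 0.769, adjusted p = 1.8e-08).

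Its paralog Wwtr1 (chr3:57455649-57575910) differed less. WT libraries held 139, 146, 146 and 141 CPM under DMSO and 115, 124, 122 and 131 CPM under torin1, with no overlap. The adjusted p of 0.00056 passed but the FC of 0.861 did not reach the limit (log2 FC -0.22 ± 0.05). Lats1 (chr10:7681214-7716460) had 117, 115, 121 and 125 CPM against 101, 94.3, 104 and 100 CPM, and its log2 FC of -0.26 ± 0.04 (adjusted p = 3.8e-06) was at the limit. It was called without DMSO replicate 1, DMSO replicate 2 or torin1 replicate 4 (log2 FC -0.29 to -0.27, adjusted p at most 1.4e-05). The groups of the other 7 genes overlapped, whereas 51.8% of all genes had groups without overlap.

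The targets that MK-8722 raised were not called with torin1 in WT. Ccn1 had 277, 371, 278 and 324 CPM (log2 FC -0.18 ± 0.12, adjusted p = 0.20) and Ccn2 263, 458, 306 and 491 CPM (log2 FC -0.21 ± 0.18, adjusted p = 0.35). Both overlapped the DMSO range. Ankrd1 spread widely under torin1, at 80.3, 70.3, 85.6 and 113 CPM, around a log2 FC of -0.02 ± 0.10 (adjusted p = 0.91), whose sign turned positive without DMSO replicate 4 or torin1 replicates 1, 2 or 3 (0.02 to 0.07) and with total counts as scaling (0.08). Amotl2 had 383, 428, 352 and 356 CPM (log2 FC 0.15 ± 0.06, adjusted p = 0.042, FC 1.11). The median over the 10 was -0.15 against 0.04 over all genes.

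In AMPK KO, torin1 lowered Yap1, raised Lats2 and Ankrd1, and left 7 genes uncalled. Over all genes, 25.9% rose and 17.6% fell. The summed epithelial markers went from 3.21 to 4.79 CPM under DMSO to 5.62 to 6.87 CPM. The endothelial markers went from 1.57 to 2.10 CPM to 2.25 to 3.07 CPM, and Kdr among them from 0.900 to 1.46 CPM to 1.77 to 2.49 CPM. The skeletal muscle markers went from 1.83 to 2.16 CPM to 2.78 to 3.35 CPM. The summed fibroblast markers went from 4796.16 to 5371.07 CPM under DMSO to 6267.51 to 6833.22 CPM, and of the 8 tested 4 rose and 3 fell. The part of these markers was not tested. Yap1 had 130, 132, 120 and 125 CPM under DMSO and 95.5, 101, 97.6 and 97.3 CPM under torin1, with no overlap. The log2 FC was -0.37 ± 0.04 (FC 0.772, adjusted p = 3.6e-08). The difference of the Yap1 response from that in WT was 0.01 ± 0.06 (adjusted p = 0.98), with a sign that depended on the scaling.

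Ankrd1 (chr19:36111961-36120099) had 55.6, 55.7, 49.1 and 49.3 CPM under DMSO and 75.5, 68.0, 76.0 and 80.5 CPM under torin1 in AMPK KO. All torin1 libraries were above all DMSO libraries. The log2 FC was 0.52 ± 0.11 (FC 1.43, adjusted p = 0.00022), and the ratio within passages ran from 1.22 to 1.54. Lats2 had 86.6, 88.0, 92.0 and 79.6 CPM against 105, 106, 98.2 and 109 CPM, also without overlap. Its log2 FC of 0.27 ± 0.06 (FC 1.21, adjusted p = 0.00029) was at the limit and was lost without KO DMSO replicates 3 or 4 or KO torin1 replicates 1, 2 or 4 (log2 FC 0.18 to 0.26, adjusted p at most 0.016), and with DESeq2 (0.25, adjusted p = 0.00012). It was also lost with DESeq2 size factors, without a filter, with the stricter filter (at least 10 counts in every library) and with the compared groups alone (0.23 to 0.26), as well as at a limit of 1.5-fold and when tested against a fold of 1.2.

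Ccn1 and Ccn2 had slightly higher values with torin1 in AMPK KO without passing the test. Ccn1 had 226, 231, 222 and 264 CPM, all above the DMSO libraries (log2 FC 0.25 ± 0.12, adjusted p = 0.082), and was called with total counts as scaling (0.31, adjusted p = 0.023). Ccn2 had 111, 128, 106 and 141 CPM, likewise above the DMSO libraries (log2 FC 0.35 ± 0.19, adjusted p = 0.11). Ccn2 was called with passage as a block (0.35, adjusted p = 0.0024) and with the compared groups alone (0.31, adjusted p = 0.017). Groups did not overlap for 5 of the 10 genes, against 53.8% of all genes. Ajuba had 113, 130, 115 and 120 CPM (log2 FC -0.20 ± 0.05, adjusted p = 0.0022), below the 1.2-fold limit, and was called without KO DMSO replicates 3 or 4 or KO torin1 replicate 2 (log2 FC -0.29 to -0.27). Wwtr1 (-0.16 ± 0.05, adjusted p = 0.0075) passed the adjusted p alone.

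Of the 10 genes, 1 responded differently to torin1 in the 2 genotypes. Over all genes, 4.15% had a higher and 2.92% a lower torin1 response in AMPK KO. Ankrd1 had a log2 FC of -0.02 in WT and 0.52 in AMPK KO, a difference of 0.53 ± 0.15 (adjusted p = 0.025). The call was lost without WT DMSO replicate 4, WT torin1 replicates 1 or 3, KO DMSO replicates 3 or 4, or KO torin1 replicate 4 (0.42 to 0.48, adjusted p of 0.052 to 0.11), and when the 4 compared groups were fitted alone (0.46, adjusted p = 0.065). Lats1 differed by 0.22 ± 0.05 (adjusted p = 0.014, FC 1.16), under the fold limit. The differences for Ccn1 (0.43 ± 0.17, adjusted p = 0.11) and Ccn2 (0.56 ± 0.26, adjusted p = 0.19) did not pass. Both passed with passage as a block (0.43, adjusted p = 0.0057, and 0.57, adjusted p = 0.0036). Ccn1 was called without WT torin1 replicate 2 (0.52, adjusted p = 0.050) and Amotl2 without WT torin1 replicate 3 (-0.30, adjusted p = 0.047).

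The 2 drugs were also set against each other in WT, a comparison without DMSO libraries. Of the 10 genes, 5 were called lower with torin1 than with MK-8722 and none was called higher, in a comparison where 21.2% of all genes were lower and 24.5% higher. Ccn2 differed most (log2 FC -1.16 ± 0.18, FC 0.446, adjusted p = 8.1e-06), followed by Ccn1 (-1.05 ± 0.12, FC 0.482, adjusted p = 6e-08). Lats1 (-0.33 ± 0.04), Yap1 (-0.29 ± 0.04) and Wwtr1 (-0.29 ± 0.05) had adjusted p of at most 1.7e-05. The last 2 were close to the fold limit. Yap1 was lost without MK-8722 replicate 4 or torin1 replicates 1 or 3 (-0.26 to -0.25) and Wwtr1 without torin1 replicates 1 or 3 (-0.26 to -0.24). With total counts as scaling Lats1 (-0.24), Yap1 (-0.20) and Wwtr1 (-0.20) were all under the fold limit. Ankrd1 (-0.25 ± 0.10, adjusted p = 0.047) was called without MK-8722 replicate 1 or torin1 replicate 4 (-0.39 to -0.27), and with passage as a block (-0.26, adjusted p = 0.0042). Ajuba ran the other way, with 168, 186, 165 and 163 CPM under torin1 against 146, 152, 158 and 157 CPM under MK-8722. Every torin1 library lay above every MK-8722 library, but the FC of 1.11 was under the limit (log2 FC 0.15 ± 0.05, adjusted p = 0.013). Groups did not overlap for 8 of the 10 genes and for 48.9% of all genes.

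**Figure D4:**
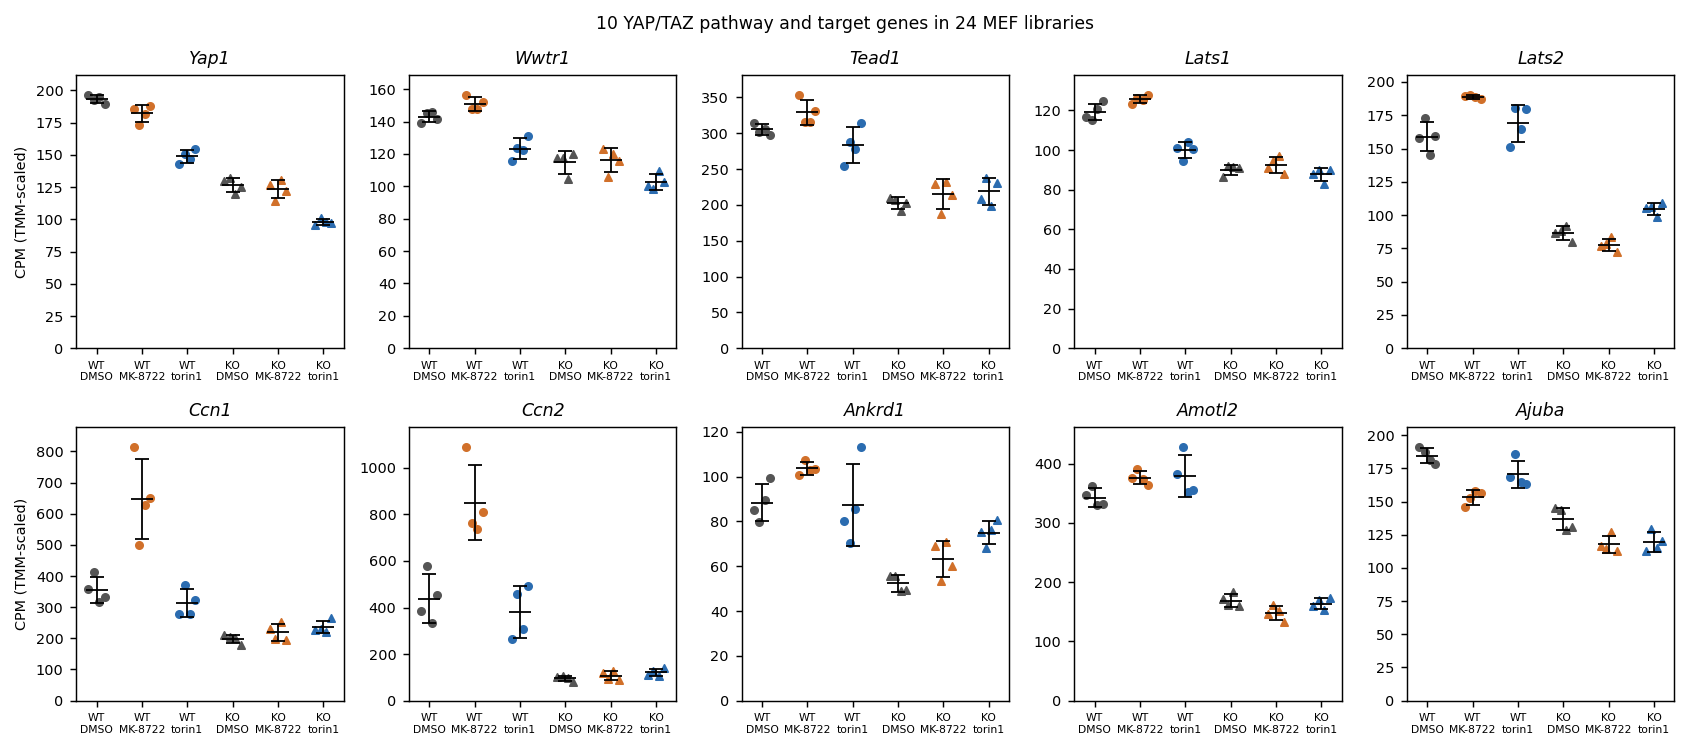
CPM of the 10 genes in each of the 24 libraries, with WT as circles and AMPK KO as triangles, DMSO in grey, MK-8722 in orange and torin1 in blue. Horizontal bars are means and whiskers 1 SD of 4 libraries, and every axis starts at 0. For each gene all WT DMSO libraries lie above all AMPK KO DMSO libraries, with the widest gap for Ccn2 (334 to 578 against 78.4 to 105 CPM).

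Between the genotypes all 10 genes were lower in AMPK KO under DMSO. In the same comparison 26.0% of all genes tested were lower and 30.9% higher. No range overlapped between the genotypes for any of the 10, which held for 64.0% of all genes. The median log2 FC was -0.68, against 0.02 over all genes. Fibroblast markers moved with the genotype too: 7 of the 8 tested were lower and 1 was higher in AMPK KO, with a median of -1.34. Their log2 FC ran from -6.46 to 0.87, and Col1a2 had 1762.3 to 3231.5 CPM in WT and 21.3 to 47.3 CPM in AMPK KO. The summed fibroblast markers were 11153.6 to 15911.3 CPM in WT and 4796.16 to 5371.07 CPM in AMPK KO. The summed epithelial markers were 1.40 to 2.41 CPM in WT and 3.21 to 4.79 CPM in AMPK KO, the endothelial markers 0.878 to 1.28 and 1.57 to 2.10 CPM, and the skeletal muscle markers 2.45 to 3.69 and 1.83 to 2.16 CPM. The part of these markers in the differences of the 10 genes was not tested, and the libraries labelled AMPK KO were all of later passages.

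Ccn2 showed the largest genotype difference. Under DMSO it had 384, 578, 334 and 455 CPM in WT and 102, 105, 94.9 and 78.4 CPM in AMPK KO, and the highest AMPK KO library lay far below the lowest WT library. Its log2 FC was -2.20 ± 0.19 (FC 0.217, adjusted p = 3.6e-10). Amotl2 (chr9:102716672-102733418) came second, with 347, 363, 330 and 332 CPM in WT and 171, 161, 183 and 160 CPM in AMPK KO (log2 FC -1.02 ± 0.06, FC 0.492, adjusted p = 5e-13). Lats2 had a log2 FC of -0.88 ± 0.06 (FC 0.544, adjusted p = 2.3e-12). Ccn1 fell to 209, 205, 202 and 180 CPM from the WT values above (log2 FC -0.83 ± 0.12, adjusted p = 1.3e-06). Ankrd1 had a log2 FC of -0.75 ± 0.11 (FC 0.593, adjusted p = 1.1e-06).

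The coactivators, Tead1, Lats1 and Ajuba had the 5 smallest differences. Yap1 had a log2 FC of -0.61 ± 0.04 (FC 0.656, adjusted p = 2.3e-12). Tead1 (chr7:112679318-112906807), the TEAD gene among the 10, had 315, 302, 306 and 298 CPM in WT and 209, 207, 191 and 203 CPM in AMPK KO (log2 FC -0.59 ± 0.07, adjusted p = 3.2e-08). Ajuba (-0.43 ± 0.05, adjusted p = 8.5e-08) and Lats1 (-0.40 ± 0.04, adjusted p = 1.8e-09) were next. Wwtr1 differed least, with 139, 146, 146 and 141 CPM in WT against 118, 117, 105 and 120 CPM in AMPK KO (log2 FC -0.32 ± 0.05, FC 0.803, adjusted p = 4.1e-06). Leaving out any 1 library kept all 10 calls. When libraries were scaled by total counts in place of TMM factors, the median of all genes rose from 0.02 to 0.16 and Wwtr1 was no longer called (-0.18, adjusted p = 0.00066), while the other 9 were.

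**Figure D5:**
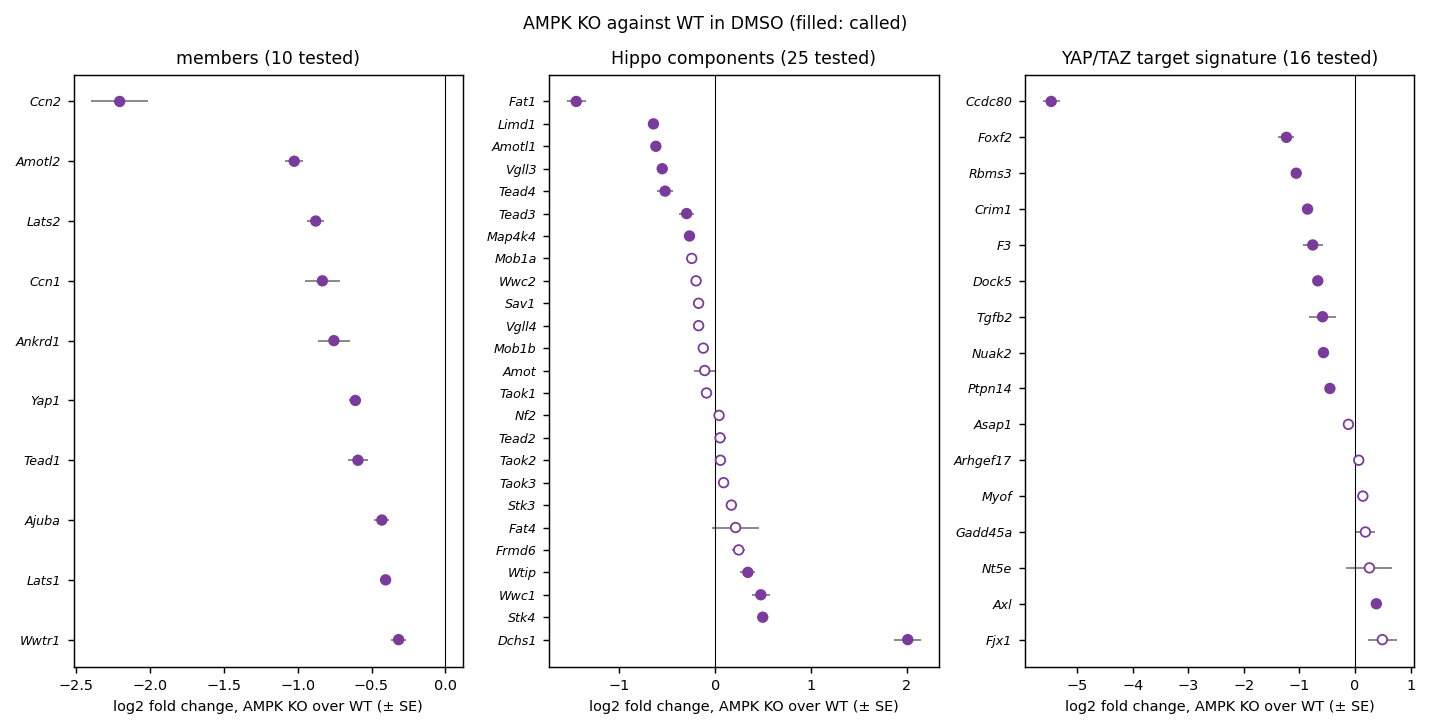
Log2 fold change (± SE) of AMPK KO over WT under DMSO for the 10 genes, 25 other Hippo components and 16 further YAP/TAZ target genes. Filled points are called genes. All 10 members lie left of 0, whereas the Hippo components lie on both sides, from Fat1 at -1.45 to Dchs1 at 2.01.

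The order of the 6 groups set the genes apart. For Ccn1, Ccn2 and Ankrd1 the highest mean was WT with MK-8722 and the lowest was AMPK KO with DMSO. WT with MK-8722 lay above all DMSO libraries of WT for each of the 3 genes. The means of WT DMSO and WT torin1 came next and their ranges overlapped for each gene. For Yap1 the order ran from WT DMSO (193 ± 3.12 CPM) over WT MK-8722 (182 ± 6.55) and WT torin1 (149 ± 4.87) to AMPK KO DMSO (127 ± 5.45), AMPK KO MK-8722 (123 ± 6.96) and AMPK KO torin1 (97.9 ± 2.32). Of neighbours in that order, AMPK KO DMSO and AMPK KO MK-8722 alone had ranges that overlapped. For Ajuba both WT and AMPK KO had their highest mean under DMSO.

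Other genes with group patterns like those of the 3 targets were ranked by the root mean square difference of their centred log2 group means, over 6 groups and 10055 genes. Ccn1 was closest to Coprs (0.0956), Bhlhe40 (0.132) and Nampt (0.144). Ccn2 was closest to Tmeff1 (0.211), Impact (0.224) and Enc1 (0.247). Ankrd1 was closest to Rabgap1l (0.0558), Rufy3 (0.0618) and Acadsb (0.0699). Ccn1 and Ccn2 themselves differed by 0.668, since the genotype difference of Ccn2 was larger. These are descriptions over 6 means.

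The transcript estimates showed which isoforms carried the counts. Ccn1 had a single annotated transcript. The 2398-base transcript of Ccn2 took 90.7% of its TPM on average and 87.2% to 94.1% in single libraries. For Wwtr1 the 4697-base transcript took 81.5% and for Ajuba the 3397-base transcript 89.0%. Yap1 was spread over 10 transcripts, of which the leading one took 42.8%. In Ankrd1 the leading transcript took 33.8% under DMSO in WT and 51.1% in AMPK KO, estimates from short reads over 6 overlapping transcripts that were not tested.

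Around the 10 genes, 25 other Hippo components were all measured. Their counts are to be read against the shares of all genes called in the same comparison. With MK-8722 in WT 3 rose and 1 fell (median log2 FC 0.03), against 10.0% and 5.66% of all genes. The scaffold Wwc2, a KIBRA relative, rose by 0.38 ± 0.05 (adjusted p = 2.01e-06) and the FERM-domain gene Frmd6 fell by 0.53 (adjusted p = 3.56e-06). In AMPK KO, MK-8722 raised Amotl1 (0.30 ± 0.05, adjusted p = 0.00459) and lowered the TEAD cofactor Vgll4 (-0.38 ± 0.06, adjusted p = 0.00127), against 0.866% and 0.695% of all genes. With torin1 3 rose and 8 fell in WT, against 26.6% and 21.1% of all genes. The cadherins Fat4 (0.86 ± 0.24) and Dchs1 (0.67 ± 0.15) rose most, from low levels of 5.06 ± 2.08 and 3.15 ± 0.843 CPM. The Fat4 groups overlapped, at 3.17 to 7.83 CPM under DMSO and 7.29 to 10.8 CPM under torin1. In AMPK KO 2 rose and 5 fell with torin1, against 25.9% and 17.6% of all genes, with Tead4 at -0.61 ± 0.09 and Dchs1 at 0.58 ± 0.12.

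The same components differed between genotypes in both directions. Under DMSO 4 were higher and 7 lower in AMPK KO (median log2 FC -0.11), against 30.9% and 26.0% of all genes. Dchs1, an atypical cadherin, was higher (2.01 ± 0.14, adjusted p = 5.33e-12) and its relative Fat1 lower (-1.45 ± 0.10, adjusted p = 3.1e-12). Torin1 against MK-8722 in WT gave 3 higher and 12 lower (24.5% and 21.2% of all genes), with Fat4 at 1.26 ± 0.25 and Tead4 at -0.91 ± 0.09. Under MK-8722 Fat4 was at 3.82 ± 1.64 CPM. The MK-8722 response differed between genotypes for 3 components, 1 higher and 2 lower in AMPK KO (5.12% and 7.66% of all genes). Among them were Amot (-0.59 ± 0.16) and Wwc2 (-0.47 ± 0.07). The torin1 response differed for 4, all higher in AMPK KO (4.15% of all genes), with Mob1b (0.37 ± 0.08) and Stk3 (0.32 ± 0.09) leading.

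Of 17 further genes of a YAP/TAZ target signature 16 were tested. MK-8722 raised 2 of them and lowered 0 in WT (median log2 FC 0.11), against 10.0% and 5.66% of all genes. F3, the gene for tissue factor, had a log2 FC of 1.80 ± 0.16 (adjusted p = 1.58e-08), from 15.1 ± 2.04 to 52.5 ± 14.8 CPM. Crim1 had 0.65 ± 0.06 (adjusted p = 4.73e-08), from 298 ± 15.8 to 469 ± 11.9 CPM. Both responses differed between genotypes, F3 by -1.59 ± 0.24 and Crim1 by -0.82 ± 0.09 (7.66% of all genes had a lower value in AMPK KO). In AMPK KO, MK-8722 raised 1 gene, the stress gene Gadd45a (0.62 ± 0.16, adjusted p = 0.0462), and lowered 0, against 0.866% and 0.695% of all genes.

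Torin1 moved the signature both ways, with 4 higher and 4 lower of 16 in WT (26.6% and 21.1% of all genes) and 5 higher and 2 lower in AMPK KO (25.9% and 17.6%). Gadd45a was lower in both (-1.46 ± 0.18 and -1.19 ± 0.18). F3 was higher in both (1.17 ± 0.16 in WT, and 0.44 ± 0.18 in AMPK KO with adjusted p = 0.037), and so was Crim1 (0.52 ± 0.06 and 0.58 ± 0.06). Torin1 against MK-8722 in WT gave 2 higher and 6 lower (24.5% and 21.2% of all genes). Among them were Gadd45a (-1.69 ± 0.18) and Tgfb2 (-0.91 ± 0.24). The torin1 response differed between genotypes for 1 of the 16 genes, Rbms3 (0.43 ± 0.10). Over all genes, 4.15% had a higher and 2.92% a lower torin1 response in AMPK KO. Under DMSO 9 of the 16 were lower and 1 was higher in AMPK KO (median -0.51), against 26.0% and 30.9% of all genes. Ccdc80 was at -5.47 ± 0.15 and Rbms3 at -1.06 ± 0.07.

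Of the 4 other CCN family genes 3 were tested, Ccn3, Ccn4 and Ccn5. MK-8722 raised 2 and lowered 0 of them in WT, against 10.0% and 5.66% of all genes. In AMPK KO none was called with MK-8722, against 0.866% and 0.695%. Torin1 raised 2 and lowered 1 in each genotype, against 26.6% and 21.1% of all genes in WT and 25.9% and 17.6% in AMPK KO. The MK-8722 response was lower in AMPK KO for 2 (7.66% of all genes), and under DMSO 1 was lower in AMPK KO (26.0%). Ccn3 rose with MK-8722 in WT (1.89 ± 0.20, adjusted p = 1.31e-07), with torin1 in WT (2.35 ± 0.20) and with torin1 in AMPK KO (1.76 ± 0.21). It was lower in AMPK KO under DMSO (-0.77 ± 0.22, adjusted p = 0.00393), at 3.76 ± 0.406 against 6.45 ± 1.31 CPM. Its MK-8722 response differed between genotypes (-2.07 ± 0.31), and its level was higher with torin1 than with MK-8722 in WT (0.46 ± 0.18). Ccn4 fell with torin1 in WT (-0.81 ± 0.15) and in AMPK KO (-0.92 ± 0.15).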

How the data were processed

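Poly(A) RNA of 24 MEF libraries was sequenced as paired-end reads. According to the study's methods and the labels, the authors ran nf-core/rnaseq with STAR and Salmon on GRCm38. Gene values were deposited as estimated counts without normalization, and the transcript tables give TPM as the authors' workflow wrote them. Libraries were grouped by their labels for genotype and treatment. Estimated counts were rounded, filtered with filterByExpr (15828 genes kept, at least 99.94% of counts) and scaled with TMM factors. A quasi-likelihood model of 6 group means over all 24 libraries was fitted in edgeR 4.0.16 (R 4.3.3), with two-sided tests, Benjamini-Hochberg adjustment over all genes, a threshold of 0.05 and a fold change of at least 1.2. The script was tested on simulated data. The common biological coefficient of variation was 0.079. Intervals of counting error were not needed, as each value has 4 libraries. Alternatives were other scalings, filters, offsets, blocks, thresholds and DESeq2 1.42.0.

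The 10 genes and the gene lists were chosen with earlier results of these data known. All 10 are named throughout. From each further list at most the 2 called genes with the largest change and a mean of at least 5 CPM are named per comparison, and for Ccn1, Ccn2 and Ankrd1 the 3 genes of the most similar group means. Ccn5, under that mean, is named in addition. Sequences are from RefSeq (GRCm38.p6) and gene positions from GENCODE vM21. The study's methods mention a batch removal, but all libraries carry 1 batch label, so none was removed.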

Additional observations from a re-analysis of the deposited data

Results flagged for a closer look

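The response to MK-8722 differed between AMPK KO and WT for 4 of the 10 genes by the interaction term of the edgeR fit. The log2 difference was -0.41 for Lats2 (adjusted p = 0.0012), -0.73 for Ccn1 (0.0036), -0.32 for Amotl2 (0.013) and -0.79 for Ccn2 (0.040). The response to torin1 differed for Ankrd1, by 0.53 (adjusted p = 0.025). The Ccn2 and Ankrd1 differences were lost in 10 and 6 of the 16 fits without 1 library. Genotype and passage cannot be told apart in these 5 values. Among the 60 sets of 4 libraries examined, no library passed the critical value of the Dixon test, which with 4 libraries finds only wide gaps.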

How the results depend on the processing

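Counts of called members are given where they differ from those of the report. For MK-8722 in WT (3 called) the count was 2 with total counts, with a length offset, at 1.5-fold or when tested against a fold of 1.2, and 4 with the adjusted p alone. For AMPK KO against WT (10) it was 9 with total counts, with at least 10 counts in every library or when tested against 1.2, and 7 at 1.5-fold. In MK-8722 in AMPK KO (0 called) the count was 1 with a passage block and 1 with the adjusted p alone. For torin1 in WT (1) it was 2 without a filter, with a length offset or with the compared groups alone, 4 with the adjusted p alone and 0 at 1.5-fold. For torin1 in AMPK KO (3) it was 2 with DESeq2, DESeq2 size factors, no filter, the stricter filter or a test against 1.2, 4 with total counts or a passage block, 5 with the adjusted p alone and 0 at 1.5-fold. For torin1 against MK-8722 in WT (5) it was 2 with total counts, 3 with at least 10 counts in every library, 4 with a length offset, 6 with a passage block, 9 with the adjusted p alone, 2 at 1.5-fold and 3 when tested against a fold of 1.2. For the MK-8722 difference between genotypes (4) it was 2 at 1.5-fold and 1 when tested against 1.2. For the torin1 difference (1) it was 3 with a passage block, 0 with the compared groups alone, 2 with the adjusted p alone, 0 at 1.5-fold and 0 when tested against 1.2. The cause of these changes was not tested beyond the stricter or looser limits. Leaving out 1 library gave 2 to 4 (MK-8722 in WT), 1 to 2 (torin1 in WT), 3 to 6 (torin1 against MK-8722) and 0 to 2 (torin1 difference). It also changed the calls of Lats2 and Ajuba (torin1 in AMPK KO) and Ccn2 (MK-8722 difference), as given above for each gene.

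Over all genes, the 247 calls for MK-8722 in AMPK KO became 138 with a length offset, 729 with a passage block, 423 with the adjusted p alone, 64 at 1.5-fold and 8 when tested against 1.2. The 2483 calls in WT became 4447 with the adjusted p alone, 833 at 1.5-fold and 843 when tested against 1.2. For the torin1 difference 1119 became 1861 with a passage block, 305 at 1.5-fold and 101 when tested against 1.2, and for the MK-8722 difference 2023 became 681 and 500 at these limits. At 1.5-fold the genotypes gave 5541 in place of 9007, torin1 3855 in place of 7540 (WT) and 3146 in place of 6879 (AMPK KO), and the drugs 3551 in place of 7229.

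Libraries with the same replicate number deviated together in 5 of 60 pairs (r over 0.1), so the numbers do not pair the samples. A replicate block left all 8 counts as they were: 3, 0, 1, 3, 10, 5, 4 and 1. Libraries of the same passage had r of -0.0114 to 0.367, over 0.1 in 15 of 24 pairs (median 0.129), against 0 of 72 pairs of other passages of the same genotype. Same-passage libraries thus deviated together in most pairs but not in all, and the labels do not say what a passage shares. Scaling by total counts moved the median log2 FC of all genes to 0.14 for torin1 in WT, 0.12 in AMPK KO, 0.16 for the genotypes and 0.12 between the drugs. The share of called genes that were higher became 67.5% for torin1 in WT (55.8% with TMM), 67.4% for the genotypes (54.3%), 65.3% between the drugs (53.5%), 45.1% for MK-8722 in AMPK KO (55.5%) and 42.1% for the torin1 difference (58.7%).

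Signs turned only for log2 values near 0, none of them called. The Yap1 torin1 difference became -0.02 with DESeq2 size factors or DESeq2, -0.03 with total counts, -0.05 with the stricter filter, -0.01 with the length offset, -0.07 with the groups alone and -0.09 to 0.03 without 1 library. With total counts Wwtr1 became -0.002 (MK-8722 in AMPK KO), Lats1 0.02 and Amotl2 0.02 (torin1 in AMPK KO) and Ankrd1 0.08 (torin1 in WT, 0.01 with the stricter filter). The Wwtr1 torin1 difference became -0.02 with the groups alone, and the Tead1 MK-8722 difference 0.01 with the length offset. Without 1 library in turn, values of both signs were found in -0.03 to 0.06 (Wwtr1, MK-8722 in AMPK KO), -0.06 to 0.08 (Wwtr1, torin1 difference), -0.06 to 0.06 (Tead1, MK-8722 difference), -0.175 to 0.07 (Ankrd1, torin1 in WT), -0.02 to 0.13 (Ankrd1, MK-8722 difference) and -0.06 to 0.08 (Amotl2, torin1 against MK-8722).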
